A study of Mus musculus with 46 samples.

Results

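This comparison sets 5 tumors of complete responders (CR) against 5 tumors of progressors (PR), all resected 7 days after cyclophosphamide (CY), and asks which genes differed between mice that later cleared their disease and mice that did not. The tumors were taken by their response and time labels and are 10 of the 46 tumors sequenced. All 46 were AB1-HA tumors, a mouse mesothelioma line that carries influenza hemagglutinin as a marker antigen, grown subcutaneously in male BALB/c mice labelled 8-10 weeks old. Every mouse was given CY (200 mg/kg), and the day -1 tumors were taken before it. Mice carried bilateral tumors, of which 1 was resected and the other, left in place, gave the response, so the label describes a tumor that was not sequenced. The PR group is called progressors in the methods and partial responders in the series text. The day 7 tumors were resected on day 17 after inoculation, and reference values come from day -1, the day before CY and day 9 after inoculation, with 13 CR and 13 PR tumors, and from day 3 (day 13 after inoculation), with 5 CR and 5 PR tumors. Time after CY and tumor age cannot be told apart, and no group without CY was used here at days 3 and 7.

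CY alkylates DNA and kills dividing cells, tumor cells and lymphocytes among them, and is known to make blood leukocytes fall and then recover. Dying tumor cells can induce type I interferon, whose receptor drives a set of antiviral genes, while T cells and natural killer (NK) cells release interferon gamma, which raises antigen presentation by major histocompatibility complex (MHC) molecules. Macrophages clear dead cells, partly through the complement component C1q.

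The libraries held 16921621 to 19446596 counts in CR and 16047930 to 18375801 counts in PR over the genes covered. CPM values (counts scaled to a common library size) below use these totals with TMM factors. Markers of the cell types expected in such a tumor were measured in all 10 tumors, with Csf1r of macrophages at 1024 CPM or more and Cd3g of T cells at 14.1 CPM or more. Of the mesothelial markers Msln stood at 45.3 CPM or more, whereas Krt18 and Krt19 were below 1 CPM in every tumor. One library stood apart. CR tumor 4 had a score of 46.24 on the first principal component, which held 33.6% of the variance, and the other 9 tumors had scores between -15.47 and 5.62. Values without it are given for many of the genes and lists that it moved. These are bulk samples, so fewer cells of a type and less RNA per cell cannot be told apart.

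No gene separated the groups at day 7 once p-values were adjusted after Benjamini and Hochberg, with a false discovery rate (FDR) under 0.1 as the threshold. Of 11727 genes tested with edgeR's quasi-likelihood test, 0 were called higher and 0 lower in CR (0% each way), and the smallest adjusted p was 0.967. At an unadjusted p under 0.05, 186 genes were higher in CR (1.59%) and 147 lower (1.25%). Together these were 2.84% of genes, fewer than the 5% that this threshold gives where no gene differs. DESeq2 called 4 genes higher and 2 lower at the same FDR, and limma-voom called 0 higher and 1 lower. All 5 CR tumors lay above all 5 PR tumors for 31 genes (0.264%) and below them for 27 (0.230%). Among so many genes some separate in this way without any difference between groups. A lack of overlap in a gene named below is therefore no evidence of a difference by itself. The log2 fold changes of CR over PR were above 0 for 51.2% of genes and had a median of 0.00. Their 95% interval reached a median of 0.345 to each side, and for 10225 genes (87.2%) it lay within a 2-fold difference (log2 of 1) in both directions. These intervals are not adjusted for the number of genes, and differences beyond them also missed the FDR.

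**Figure D1:**
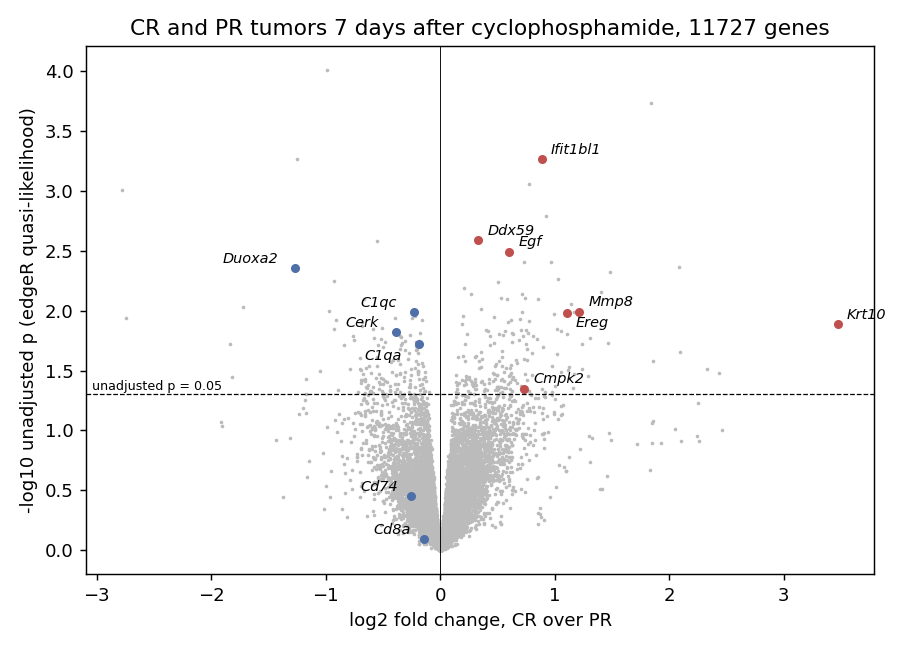
Each point is 1 of 11727 genes, by its log2 fold change (CR over PR, x axis) and its unadjusted p from edgeR's quasi-likelihood test (negative log10, y axis), with named genes in red (higher in CR) or blue (lower in CR). Ifit1bl1 has the smallest p of the named genes, 5.4e-04, and Cd8a and Cd74 lie near the bottom with p of 0.812 and 0.352.

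Ifit1bl1, a member of the family of interferon-induced proteins with tetratricopeptide repeats, had the smallest p of the named genes. It stood at 5.78, 4.37, 7.45, 6.26 and 4.59 CPM in CR tumors 1 to 5, against 2.64, 2.44, 3.47, 3.54 and 3.24 CPM in PR tumors 1 to 5. The groups did not overlap, and the log2 fold change was 0.89 (SE 0.185, unadjusted p 5.4e-04, adjusted p 0.967). DESeq2 gave it an adjusted p of 0.0609. The gene shares sequence with other Ifit genes, and reads that fit several of them were assigned by estimate. At day -1 its log2 fold change was 0.35 (p 0.0918) and at day 3 it was 0.14 (p 0.551).

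The promoters of Ifit1bl1 and of 2 related interferon targets, Ifit1 and the chemokine gene Cxcl10, are shown because they hold the motif GAAANNGAAA (either strand), a core of the interferon-stimulated response element. The motif is in capitals. The windows run from 250 bases before to 50 bases after the RefSeq start on GRCm38.p6, 5′ to 3′ on the gene's strand, at chr19:34601919-34602218 for Ifit1bl1 (minus strand, the first of the starts listed), chr19:34640639-34640938 for Ifit1 (plus strand) and chr5:92348840-92349139 for Cxcl10 (minus strand). Matches can overlap each other.
Ifit1bl1: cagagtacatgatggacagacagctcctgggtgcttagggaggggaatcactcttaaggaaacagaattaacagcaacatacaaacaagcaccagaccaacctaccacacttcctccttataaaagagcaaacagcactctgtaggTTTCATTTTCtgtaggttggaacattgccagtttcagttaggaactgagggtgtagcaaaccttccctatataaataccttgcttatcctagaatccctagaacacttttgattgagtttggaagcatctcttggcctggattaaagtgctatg
Ifit1: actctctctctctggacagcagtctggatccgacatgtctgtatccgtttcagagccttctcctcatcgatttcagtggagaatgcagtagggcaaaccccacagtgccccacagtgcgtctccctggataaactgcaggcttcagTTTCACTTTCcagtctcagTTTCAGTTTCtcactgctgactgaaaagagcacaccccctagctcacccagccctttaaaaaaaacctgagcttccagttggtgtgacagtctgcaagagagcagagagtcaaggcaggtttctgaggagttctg
Cxcl10: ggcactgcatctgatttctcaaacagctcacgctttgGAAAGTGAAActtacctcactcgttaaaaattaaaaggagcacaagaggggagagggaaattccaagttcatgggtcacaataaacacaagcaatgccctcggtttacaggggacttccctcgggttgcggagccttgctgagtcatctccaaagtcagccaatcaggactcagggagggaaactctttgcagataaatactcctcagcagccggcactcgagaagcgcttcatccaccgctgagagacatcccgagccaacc
Of 27025 RefSeq promoters of this length, 943 (3.49%) held the motif. Of the 31 type I interferon genes tested, 23 had a promoter in the table and 13 of these (56.5%) held it. Among the genes described next, the promoters of Cmpk2 and Ifit2 had 0 matches, and Mx1 had no promoter in the table. A match is a description of the sequence and no measurement of binding.

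All 31 type I interferon genes tested had a log2 fold change above 0 at day 7, with a median of 0.31, against 51.2% and a median of 0.00 over all genes tested. Only Cmpk2, a mitochondrial nucleotide kinase induced by interferon, had an unadjusted p under 0.05, and 0 passed the FDR. Cmpk2 stood at 25.3, 21.03, 60.0, 71.2 and 29.8 CPM in CR tumors, against 22.1, 34.1, 23.5, 24.8 and 20.1 CPM in PR tumors. CR tumors 3 and 4 were high and the other CR tumors lay within the PR range (log2 fold change 0.73, SE 0.325, p 0.0447, and 0.45 with p 0.137 without CR tumor 4). The antiviral genes Ifit2 (log2 fold change 0.49, p 0.0546), Mx1 (0.45, p 0.0587) and Ifit1 (0.46, p 0.098) had their highest values in the same 2 tumors. Mx1, for example, stood at 116, 121, 229, 222 and 131 CPM in CR tumors, against 105, 139, 147, 104 and 104 CPM in PR tumors. Without CR tumor 4 the list had a median of 0.23 with 31 of 31 genes above 0, and without CR tumor 3 a median of 0.17 with 30 of 31. At day -1, 28 of 31 of these genes were already above 0 (47.3% of all genes) with a median of 0.15. At day 3, 15 of 31 were above 0 (49.3% of all genes) with a median of -0.01. The CR and PR difference at day 7 minus that at day -1 had a median of 0.18, with 23 of 31 above 0, against 6622 of 13194 genes.

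Of 24 interferon gamma targets tested, 19 had a log2 fold change above 0 at day 7, the median was 0.09, and 0 had an unadjusted p under 0.05. The count was 11 of 24 without CR tumor 3 and also without PR tumor 1. At day -1 all 23 tested were above 0 with a median of 0.57, and 3 had an unadjusted p under 0.05. Day 7 minus day -1 had a median of -0.49, with 23 of 24 below 0 and 0 at an unadjusted p under 0.05. Cxcl10, a chemokine that draws T cells through Cxcr3, stood at 404, 363, 844, 1003 and 482 CPM in CR tumors, against 227, 526, 523, 354 and 388 CPM in PR tumors (log2 fold change 0.62, p 0.0748, and 0.38 without CR tumor 4). The groups overlapped, with CR tumors 3 and 4 above every other tumor. Cxcl9 and the guanylate-binding protein gene Gbp2 had log2 fold changes of 0.11 and 0.12, and Ifng itself 0.12 (p 0.69), which were 0.19 for Cxcl9 and 0.23 for Ifng without CR tumor 4. Il18, a cytokine that prompts interferon gamma release, did not overlap between groups. It stood at 13.4, 12.8, 19.5, 20.5 and 13.0 CPM in CR tumors, against 10.7, 11.4, 10.6, 11.8 and 12.7 CPM in PR tumors (log2 fold change 0.47, SE 0.155, p 0.0113).

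Many of the genes with the smallest p on the CR side were in none of the gene lists. Ddx59, an RNA helicase, stood at 13.1, 12.5, 12.8, 12.8 and 11.9 CPM in CR tumors, against 10.6, 9.58, 9.62, 9.71 and 10.7 CPM in PR tumors (log2 fold change 0.33, p 0.00258). Its groups did not overlap, nor did those of Gpr39, a zinc-sensing receptor (0.74, p 0.00779), Hsd17b7, an enzyme of cholesterol synthesis (0.36, p 0.00964), or Kin, a nucleic acid binding protein (0.20, p 0.011). Egf, epidermal growth factor, stood at 4.75, 4.12, 4.58, 3.61 and 4.53 CPM in CR tumors, against 2.41, 2.94, 2.79, 3.71 and 2.32 CPM in PR tumors. Only CR tumor 4 and PR tumor 4 overlapped (log2 fold change 0.60, SE 0.162, p 0.00321). Itpr1, a calcium channel of the endoplasmic reticulum, Ikzf5, an Ikaros family zinc finger protein, and Kat8, a histone acetyltransferase, had log2 fold changes of 0.21, 0.27 and 0.19. Eya1, a developmental transcription cofactor, had 0.998 and Kcnj2, a potassium channel, 0.60.

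On the PR side the 3 chains of C1q stood together. C1qa stood at 2118, 1999, 1927, 1950 and 1872 CPM in CR tumors, against 2194, 2185, 2350, 2217 and 2274 CPM in PR tumors. The groups did not overlap, and the log2 fold change was -0.19 (SE 0.0678, p 0.0189). C1qc stood at 1285, 1205, 1150, 1182 and 1181 CPM in CR tumors, against 1322, 1279, 1540, 1403 and 1483 CPM in PR tumors (log2 fold change -0.23, p 0.0103). Its groups overlapped only at CR tumor 1 and PR tumor 2. C1qb had a log2 fold change of -0.19 (p 0.028). The 3 genes are neighbours on chromosome 4 of GRCm38, C1qb at chr4:136880129-136886187, C1qc at chr4:136889804-136893065 and C1qa at chr4:136895917-136898803, all on the minus strand. Without CR tumor 4 the values were -0.18 for C1qa, -0.19 for C1qb and -0.22 for C1qc, so that tumor did not set them.

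C1q is made mainly by macrophages, and 15 of 18 macrophage genes tested had a log2 fold change below 0 (median -0.11), against 48.8% of all genes. The C1q genes were the 3 of these with an unadjusted p under 0.05 (1.25% of all genes were lower at that p). Adgre1, which encodes F4/80, had a log2 fold change of -0.07 (p 0.647). P2ry6, a receptor for UDP on phagocytes, stood at 159, 148, 134, 143 and 147 CPM in CR tumors, against 173, 153, 159, 172 and 167 CPM in PR tumors (-0.17, p 0.0152), with CR tumor 1 within the PR range. At day -1 the direction of the C1q genes was the other way, with log2 fold changes of 0.32 for C1qa (p 0.0185), 0.34 for C1qb (p 0.0242) and 0.32 for C1qc (p 0.0219). The difference of CR and PR at day 7 minus that at day -1 was -0.52, -0.54 and -0.55 for C1qa, C1qb and C1qc, with unadjusted p of 0.0178, 0.0216 and 0.0155, and none passed the FDR (adjusted p 0.365, 0.375 and 0.356).

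Other genes lower in CR were also spread over functions. Cerk, ceramide kinase, stood at 111, 112, 88.4, 68.2 and 112 CPM in CR tumors, against 124, 115, 123, 128 and 151 CPM in PR tumors (log2 fold change -0.39, SE 0.135, p 0.0151). The groups of Cerk did not overlap, nor did those of Cryzl2 (-0.40, p 0.0116) and Hps6, a subunit of a complex that builds lysosome-related organelles (-0.26, p 0.016). Duoxa2, a maturation factor for a dual oxidase, stood at 1.09, 1.004, 0.793, 0.53 and 2.07 CPM in CR tumors, against 4.13, 2.25, 2.24, 3.05 and 1.59 CPM in PR tumors (-1.27, SE 0.358, p 0.00441). Only CR tumor 5 reached the PR range. Inppl1, the lipid phosphatase SHIP2, Lemd2, of the inner nuclear membrane, Ccm2, an adaptor of endothelial signalling, and Adam15, a membrane protease, had log2 fold changes of -0.22, -0.25, -0.16 and -0.21. Pald1, Lyl1, a blood cell transcription factor, Ctc1, of a telomere complex, and Lpin1, a phosphatidate phosphatase, had values of -0.35, -0.34, -0.19 and -0.30.

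**Figure D2:**
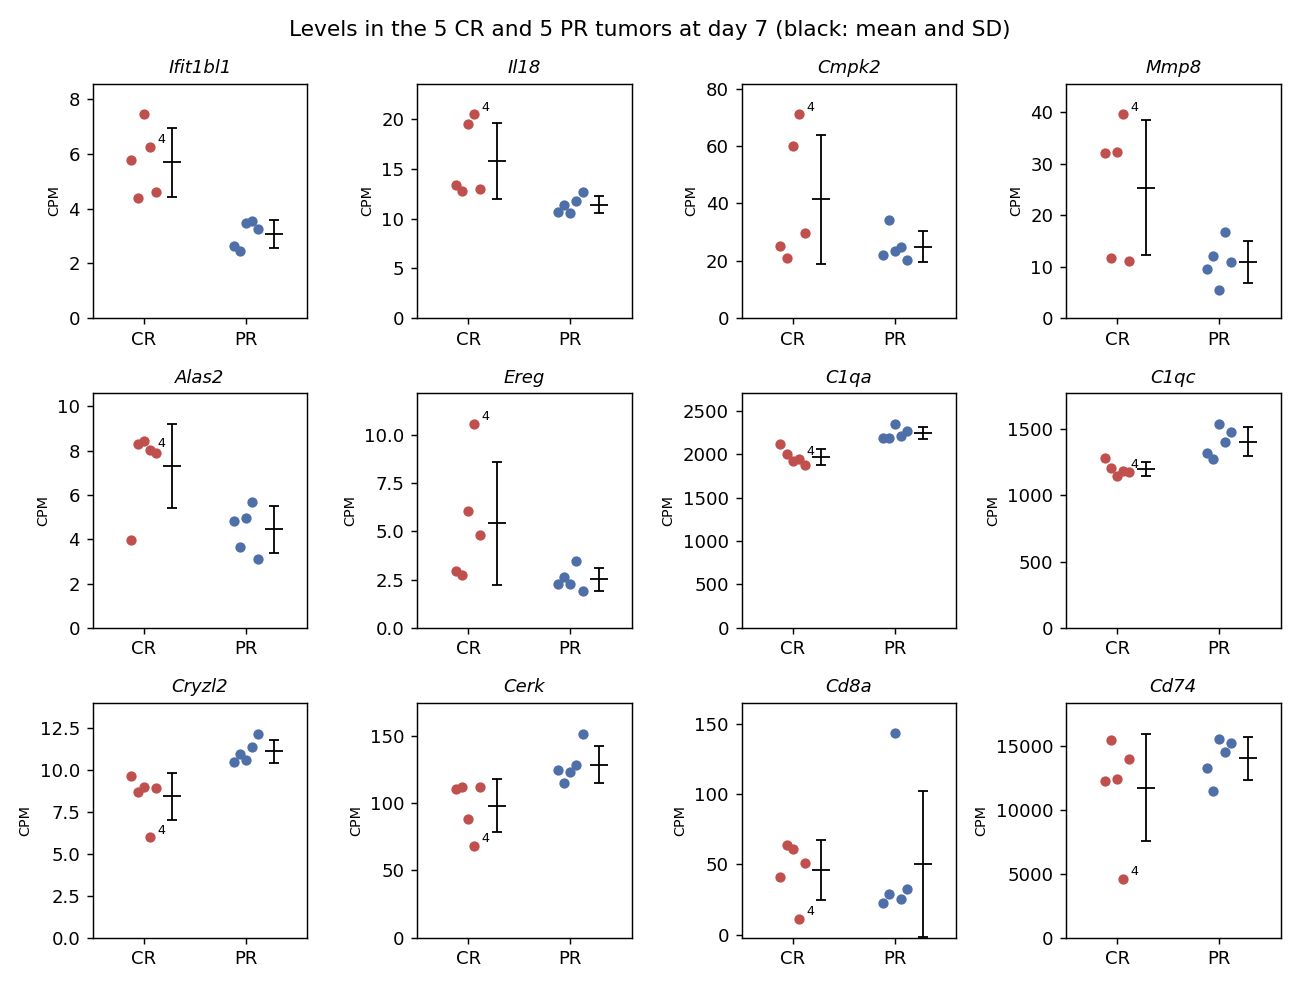
CPM (y axis, linear) of 12 genes in each of the 5 CR tumors (red, left) and 5 PR tumors (blue, right), with the mean and SD in black and CR tumor 4 marked. Ifit1bl1, Il18 (narrowly), C1qa, Cryzl2 and Cerk do not overlap between groups on this scale, and CR tumor 4 is the lowest of all 10 tumors for Cd8a (11.03 CPM) and Cd74 (4628 CPM).

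T cell genes had fold changes above 0 before CY and mostly below 0 at day 7. Of 17 tested, 3 had a log2 fold change above 0 at day 7 and the median was -0.14, with 0 at an unadjusted p under 0.05. At day -1 all 17 were above 0, against 47.3% of all genes, each with an unadjusted p under 0.05 (9.25% of all genes), and the median was 0.53, but 0 passed the FDR. At day 3 the median was 0.08. Cd8a, the co-receptor of cytotoxic T cells, stood at 41.2, 64.0, 61.1, 11.03 and 51.0 CPM in CR tumors, against 22.3, 28.7, 143, 25.2 and 32.3 CPM in PR tumors. CR tumor 4 was the lowest of the 10 and PR tumor 3 the highest. The log2 fold change of Cd8a was -0.14 over all tumors (p 0.812), 0.12 without CR tumor 4 (p 0.829) and 0.75 without PR tumor 3 (p 0.0863). Cd3e, of the T cell receptor complex, had -0.08, and 0.14 without CR tumor 4. Cd4 had -0.26, and -0.078 without that tumor, and Foxp3, which marks regulatory T cells, -0.01.

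Cytotoxic and NK genes were low in the same CR tumor. Of 16 cytotoxic genes tested 1 was above 0 (median -0.17), and of 8 NK genes 0 were (median -0.11). Ccl5, a chemokine of activated T and NK cells, stood at 362, 286, 338, 89.8 and 314 CPM in CR tumors, against 206, 259, 542, 388 and 480 CPM in PR tumors (log2 fold change -0.43, p 0.25), with CR tumor 4 far below the other 9, and the fold change was -0.20 without it. Gzma and Gzmb, proteases of cytotoxic granules, had -0.31 and -0.08, and Ncr1, an NK receptor, -0.10. These were -0.11 for Gzma, 0.035 for Gzmb and 0.032 for Ncr1 without CR tumor 4. Without CR tumor 4 the medians were 0.06 for T cell genes, 0.00 for cytotoxic genes and 0.03 for NK genes.

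Of these lists MHC class II genes had the widest gap between day -1 and day 7. All 10 tested were below 0 at day 7 with a median of -0.23 (0 at an unadjusted p under 0.05), and all 10 were above 0 at day -1 with a median of 0.64. In the day 3 tumors the median was -0.24, with 1 of 10 above 0 (49.3% of all genes) and 0 at an unadjusted p under 0.05. Cd74, the invariant chain that guides class II molecules, stood at 12274, 15510, 12420, 4628 and 14013 CPM in CR tumors, against 13304, 11477, 15574, 14590 and 15293 CPM in PR tumors. CR tumor 4 was far below the other 9 tumors, which overlapped (log2 fold change -0.26, p 0.352, and -0.05 without that tumor). H2-Ab1 had -0.29 and H2-DMb2 -0.30, against -0.091 and -0.13 without it. The class II median was -0.03 without CR tumor 4.

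Whether the difference of CR and PR itself changed between day -1 and day 7 was tested gene by gene in a model of 6 groups over 46 tumors. The model shares a single estimate of each gene's spread over all days, so its p-values can understate the spread at day 7. In it the day 7 difference alone had an unadjusted p under 0.05 (edgeR) for 7.38% of genes, against 2.84% with only the 10 day 7 tumors. The median of day 7 minus day -1 was -0.68 for T cell genes, -0.75 for cytotoxic genes and -0.87 for class II genes, against 0.00 over the 13194 genes tested. An unadjusted p under 0.05 for a lower difference was reached by 7 of 17 T cell genes, 7 of 16 cytotoxic genes and 6 of 10 class II genes, against 5.62% of all genes (5.90% had a higher one). None of these genes passed the FDR. Among them were Ccl5 (-1.07, p 0.0107), Il7r, the receptor of a T cell survival cytokine (-0.81, p 0.0245), H2-DMb2 (-0.92, p 0.00999) and Cd74 (-0.92, p 0.0409), and Cd4, counted in the list of helper T cells of type 1, had -0.80 (p 0.0191). Without CR tumor 4 the counts were 0 of 17, 2 of 16 and 2 of 10, with medians of -0.52, -0.57 and -0.67. Most of the unadjusted p under 0.05 were thus lost without that tumor. The day 7 medians without it lay near 0, as given above, so these differences mainly restate the day -1 medians (0.53, 0.60 and 0.64). The lists were chosen with earlier results of these data known, so leaving out a day 7 tumor does not test the direction.

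**Figure D3:**
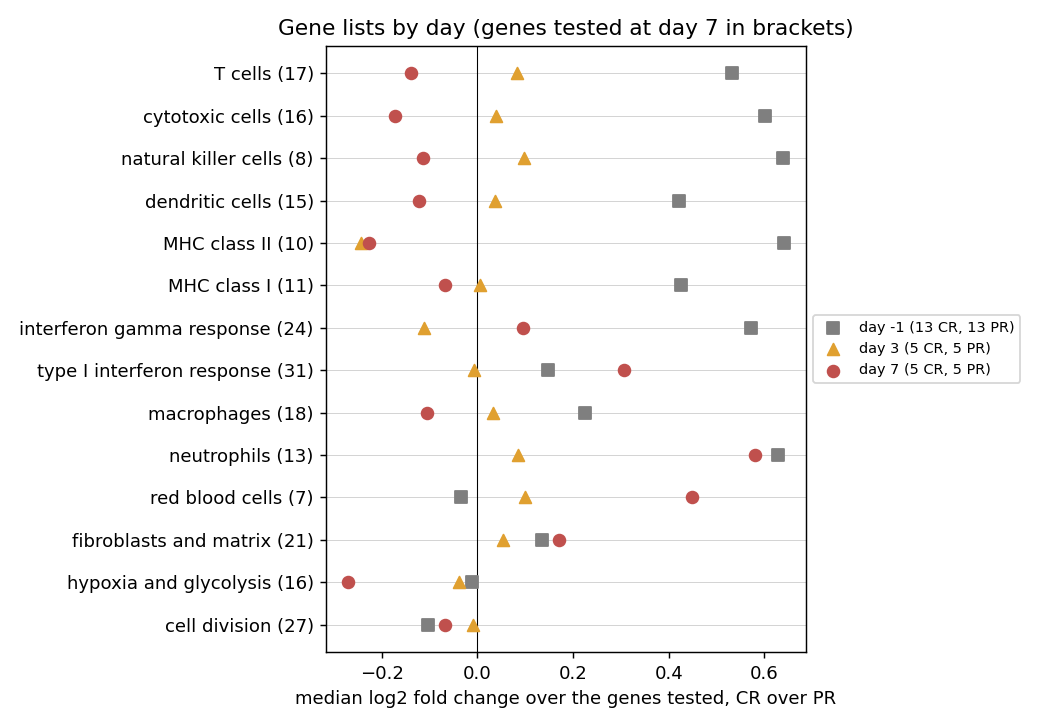
Median log2 fold change (CR over PR, x axis) of 14 gene lists at day -1 (grey squares), day 3 (orange triangles) and day 7 (red circles). T cell, cytotoxic, NK and MHC class II genes lie between 0.53 and 0.64 at day -1 and between -0.23 and -0.11 at day 7, while type I interferon genes lie at 0.15 and 0.31.

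All 13 neutrophil genes tested had a log2 fold change above 0 at day 7 (median 0.58), with 2 at an unadjusted p under 0.05 (1.59% of all genes) and 0 past the FDR. Mmp8, the neutrophil collagenase, stood at 32.0, 11.7, 32.3, 39.6 and 11.1 CPM in CR tumors, against 9.52, 12.1, 5.42, 16.7 and 10.8 CPM in PR tumors. CR tumors 1, 3 and 4 were above every PR tumor, and CR tumors 2 and 5 lay within the PR range (log2 fold change 1.22, SE 0.394, p 0.0102). Ly6g, the usual surface marker of mouse neutrophils, stood at 17.8, 5.87, 11.4, 9.65 and 3.41 CPM in CR tumors, against 2.81, 5.20, 2.24, 8.12 and 3.66 CPM in PR tumors (1.12, p 0.0293), and the same 3 CR tumors were above every PR tumor. Ltf, lactoferrin of the secondary granules, had 1.07 (p 0.0733), and 0.49 without CR tumor 4. Csf3r, the receptor of the neutrophil growth factor, had 0.19 (p 0.327). Before CY, at day -1, 4 of these genes could be tested, of which 3 were above 0 with an unadjusted p under 0.05 (median of the 4, 0.63), among them Csf3r (0.63, p 0.00185), and 0 passed the FDR. Without CR tumor 4 the list had a median of 0.49, with 13 of 13 above 0. Ms4a4c, of the monocyte list, had 0.54 (p 0.0242).

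Red blood cell genes had a median of 0.45 with 7 of 7 above 0. Alas2, which starts heme synthesis in red cell precursors, stood at 3.95, 8.28, 8.42, 8.01 and 7.89 CPM in CR tumors, against 4.82, 3.63, 4.97, 5.67 and 3.11 CPM in PR tumors. CR tumor 1 lay within the PR range and the other 4 above it (log2 fold change 0.72, SE 0.233, p 0.0103). Epb42, a membrane skeleton protein, had 0.80 (p 0.0227). The globin genes were less apart, for example Hba-a1 at 59.4 to 147 CPM in CR tumors and 71.5 to 127 CPM in PR tumors. CR tumor 1 had the lowest red cell level of the 10 tumors (mean log2 CPM -0.61 from the mean of all) beside a neutrophil level of 0.55 on the same scale. The part of blood left in the samples in the other differences was not tested.

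**Figure D4:**
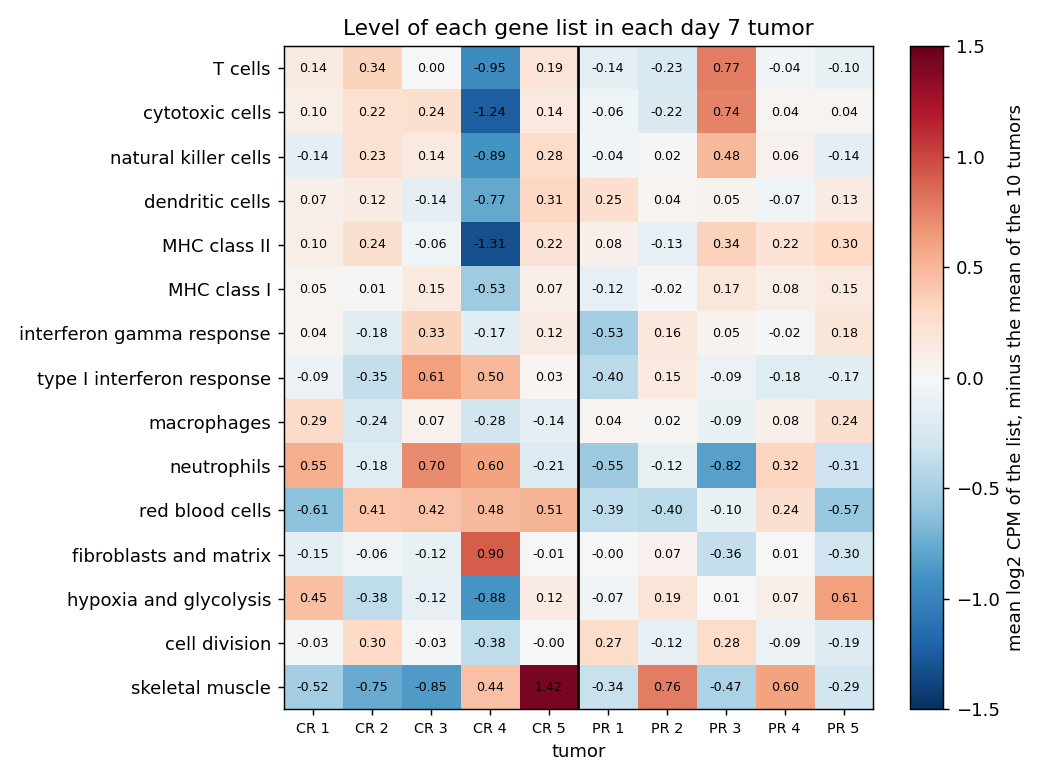
Level of 15 gene lists in each tumor (columns, CR tumors on the left), as the mean log2 CPM of the list minus its mean over the 10 tumors. CR tumor 4 is lowest for cytotoxic genes (-1.24) and MHC class II (-1.31) and highest for fibroblast and matrix genes (0.90), and PR tumor 3 is highest for T cell genes (0.77).

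Fibroblast and matrix genes were above 0 at day 7 for 20 of 21 (median 0.17), against 51.2% of all genes, and CR tumor 4 carried most of this day 7 difference. Lum, lumican of the collagen matrix, stood at 346, 556, 325, 1709 and 420 CPM in CR tumors, against 386, 421, 253, 375 and 244 CPM in PR tumors. Its log2 fold change was 0.9995 (p 0.0425), and 0.30 without CR tumor 4 (p 0.168). Mmp3, stromelysin, had 0.75 (p 0.0209), Fap 0.56 and Col1a1 0.15, and without that tumor Mmp3 had 0.47 (p 0.0519), Fap 0.20 and Col1a1 -0.05. Without it 12 of 21 were above 0 with a median of 0.02. The direction was the same on the other days. At day -1, 21 of 21 were above 0 (47.3% of all genes) with a median of 0.13. Of these, 8 had an unadjusted p under 0.05 (edgeR, 9.25% of all genes), and 0 passed the FDR. At day 3, 20 of 21 were above 0 (49.3% of all genes) with a median of 0.05.

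Hypoxia and glycolysis genes were all below 0 (0 of 16 above, median -0.27), and 0 reached an unadjusted p under 0.05. Mxi1, a target of hypoxia-inducible factor, stood at 93.4, 54.8, 61.5, 39.0 and 72.3 CPM in CR tumors, against 79.6, 75.5, 72.9, 81.2 and 127 CPM in PR tumors (log2 fold change -0.44, p 0.0703). The groups overlapped, with CR tumor 4 lowest and PR tumor 5 highest. Hk2, a hexokinase, had -0.24. The median was -0.14 without CR tumor 4 and -0.14 without PR tumor 5. The mitochondrial genes mt-Atp6 and mt-Co2 had -0.35 (p 0.0281) and -0.59 (p 0.0434), while the 13 mitochondrially encoded genes had a median of -0.05. Lpl, lipoprotein lipase, had -0.44 (p 0.0455). Cell division genes had a median of -0.07, with Mki67 at -0.06, and p53 targets 0.04, with Cdkn1a at -0.04. Of endothelial genes Kdr, a receptor of vascular growth factor, had 0.35 (p 0.0396) and Cdh5 0.05.

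Skin and muscle RNA varied between tumors in both groups. Summed over the 7 skin genes tested, CPM were 36.7, 426, 15.2, 103 and 20.3 in CR tumors, against 50.3, 18.8, 17.0, 51.3 and 171 in PR tumors. Krt10, a keratin of upper skin layers, had a log2 fold change of 3.48 (p 0.0129) that came from CR tumor 2, at 74.1 CPM against 1.12 to 2.33 CPM in the other 9, and without that tumor it was 0.41. Krt14 had 0.86 (p 0.601) and turned to -1.83 without CR tumor 2. Summed over 15 skeletal muscle genes, CPM were 636, 482, 465, 1155 and 2593 in CR tumors, against 684, 1493, 623, 1360 and 701 in PR tumors. Acta1 had a log2 fold change of 0.00, Mybpc2 0.35 and Adipoq, of fat cells, 0.35, and 0.088 for Adipoq without CR tumor 4. With the skin and muscle levels as covariates edgeR called 0 genes higher and 0 lower, with 173 and 175 at an unadjusted p under 0.05. Msln, which marks mesothelial cells, had 0.28, with CR tumor 4 highest at 117 CPM, and -0.04 without it.

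Ereg was the only gene whose CR and PR difference at day 7 was called different from that at day -1 by edgeR over all 46 tumors. Ereg encodes epiregulin, a ligand of the epidermal growth factor receptor. It stood at 2.92, 2.71, 6.04, 10.6 and 4.81 CPM in CR tumors at day 7, against 2.29, 2.63, 2.29, 3.44 and 1.89 CPM in PR tumors (log2 fold change 1.10, SE 0.359, p 0.0104, adjusted p 0.967). CR tumors 3, 4 and 5 lay above every PR tumor, and without CR tumor 4 the fold change was 0.71. On the scale of all 46 tumors the mean Ereg level at day -1 was 29.5 ± 4 CPM for CR tumors, against 35.2 ± 6.31 CPM for PR tumors (± SD, 13 tumors a group). At day 3 it was 24.9 ± 3.79 CPM for CR tumors, against 27.9 ± 2.58 CPM for PR tumors, and at day 7 it was 5.99 ± 3.45 CPM for CR tumors, against 2.80 ± 0.634 CPM for PR tumors (± SD, 5 tumors a group). The log2 difference of day 7 from day -1 was 1.35 with an adjusted p of 0.057 (edgeR), and 1 gene was called higher (0.00758% of 13194) and 0 lower. That p rests on a spread shared with the day -1 and day 3 tumors and can understate the spread at day 7. The call was lost without CR tumor 4, where the difference was 0.97 and the adjusted p 0.461, and also without CR tumor 3 (adjusted p 0.107) or PR tumors 1, 3 or 5 (0.213, 0.122 and 0.187). The number of genes called also moved with single tumors, to 23 higher and 8 lower without CR tumor 1, 61 and 33 without CR tumor 5, and 4 and 3 without PR tumor 2, and DESeq2 called 26 higher and 11 lower.

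**Figure D5:**
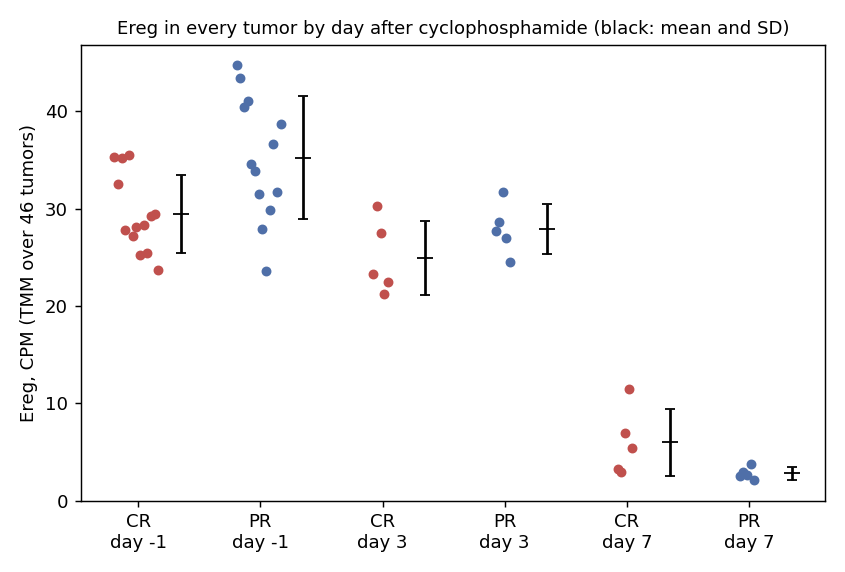
CPM of Ereg (y axis) in every CR tumor (red) and PR tumor (blue) at each day, CR left of PR within a day, with the mean and SD in black. CR tumors average 29.5 CPM at day -1, against 35.2 in PR tumors, and 5.99 CPM at day 7, against 2.80 in PR tumors.

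The next genes in that test missed the FDR with edgeR, while DESeq2 called all those named here for the difference from day -1, with adjusted p of 0.0121 (Ikzf5 and Cotl1) to 0.0882 (B4galt7 and Atp13a2), and edgeR called all of them without CR tumor 1 and also without CR tumor 5. Ikzf5 had a difference of 0.32 (adjusted p 0.167). Klhl23 had 0.83, Maoa, monoamine oxidase A, 0.46 and Adgrg6, an adhesion receptor, 0.43, each with an adjusted p of 0.258. In the other direction were Cotl1, an actin-binding protein of leukocytes, at -0.56 and Cerk at -0.48 (both adjusted p 0.133), and B4galt7 and Atp13a2 at -0.31 and -0.51 (both 0.258). CR tumor 4 had the highest Klhl23 (18.7 CPM, against 4.82 to 9.48 in the other 9), Maoa (36.4, against 19.4 to 25.8) and Adgrg6 (36.0, against 16.9 to 29.6) at day 7, as it had for Ereg. Against day 3, edgeR called 0 genes higher and 0 lower, with 398 (3.02%) and 202 (1.53%) at an unadjusted p under 0.05, and DESeq2 called 11 and 3. Ereg came first there too (1.26, p 1.22e-04, adjusted p 0.329). Krt77, a skin keratin, was among the 5 genes with the smallest p for a higher difference, at 71.8 CPM in CR tumor 2 and 0.212 CPM or less in the other 9.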

How the data were processed

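RNA from AB1-HA tumors was pseudoaligned by the authors with kallisto against GRCm38.p6 (submitters' processing notes), and the authors deposited whole-number counts per gene symbol, not normalized. The kallisto version, and how transcript estimates became gene counts, are not given in the sources used here, and labels and methods name different read lengths. Of 46012 entries, 1 that was incomplete was dropped. The last symbol is Pax7, so later ones in the alphabet were not analysed here. GENCODE M21, which also gave the coordinates, names 21924 protein-coding genes, and 64.2% of them had an entry. Names turned into dates (13) were tested and not named.

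The 10 day 7 tumors were tested in R 4.3.3 with edgeR 4.0.16 (filterByExpr, TMM, glmQLFit in its older form, glmQLFTest) and Benjamini-Hochberg adjustment. The FDR threshold of 0.1 is that of the study's methods. The CR and PR difference at day 7 was compared with that at day -1 and at day 3 in 1 model of 6 groups over 46 tumors. CPM use TMM library sizes, and list levels and principal components use log2 CPM with a prior count of 2. The labels give no mouse number, so p-values measure the spread between these samples. Among 45 pairs of day 7 libraries 0 held identical counts, and chi-square over its degrees of freedom was 11.7 or more.

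Genes were named by rank of p: 15 in either direction at day 7 (with a mean of at least 1 CPM, leaving out predicted, clone-like, date-like and pseudogene names), at most 3 in a list, and 5 in either direction against another day, besides 20 marker genes. The text gives a subset of these. The comparison, its members and the 35 gene lists were chosen with earlier results of these data known. A list is described by counts and its median, without a test. The alternatives were DESeq2 1.42.0, voom of limma 3.58.1 with sample quality weights, the revised quasi-likelihood method, robust dispersions, DESeq2's size factors, no filter, at least 1 CPM in 5 tumors, an FDR of 0.05, the 6-group model, skin and muscle covariates, and each day 7 tumor left out in turn.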

Additional observations from a re-analysis of the deposited data

Results flagged for a closer look

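Within a group of 5 tumors, a tumor was singled out where its gap to the nearest other tumor exceeded 0.71 of the group's range (Dixon's test). Of independent groups about 5% meet this by chance. The 260 groups tested share the same 10 tumors and many genes, so 5% is no chance rate for their count. Of them 36 met this, and 15 of the 36 were CR tumor 4. That tumor had the highest score on the first principal component of all CR tumors (46.24). Its CPM were lowest in CR for Il7r (17.7), Gzma (116), Ccl5 (89.8) and Cryzl2 (5.99), and highest in CR for Lum (1709), Fap (35.5) and Msln (117). As mean log2 CPM relative to all 10 tumors, it was lowest in CR for T cell genes (-0.95), helper T cell genes of type 1 (-0.74), cytotoxic genes (-1.24), inhibitory checkpoints (-0.58), MHC class II (-1.31) and MHC class I (-0.53), and highest for fibroblast and matrix genes (0.90).

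PR tumor 3 was highest in PR for Cd3e (49.2 CPM), Cd8a (143 CPM), Cd28 (19.1 CPM) and Hps6 (32.8 CPM), for the T cell list (0.77) and for the cytotoxic list (0.74). It was lowest in PR for Asb2 (16.1 CPM) and for the list of pericytes and smooth muscle (-0.51). CR tumor 2 stood apart for Krt10 (74.1 CPM) and Krt14 (82.4 CPM), and PR tumor 5 for Krt14 (44.0 CPM) and Mxi1 (127 CPM). CR tumor 5 was highest in CR for Acta1 (525 CPM) and Inppl1 (177 CPM), and CR tumor 1 lowest for Alas2 (3.95 CPM) and the red blood cell list (-0.61). CR tumor 3 was highest for Cxcl9 (7816 CPM). In PR, tumor 1 was highest for Cdh5 (63.6 CPM) and lowest for interferon gamma targets (-0.53), tumor 2 lowest for Ccm2 (98.3 CPM) and tumor 4 lowest for regulatory T cell genes (-0.38).

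The CR and PR difference of Ereg was 1.35 higher on the log2 scale at day 7 than at day -1, by a test of the difference itself (edgeR, adjusted p 0.057). The model of that test shares a single estimate of spread over all days. Ereg was lower in CR at day -1 (log2 fold change -0.26) and was higher in CR at day 7 (1.10), with neither past the FDR. Its adjusted p was between 1.38e-04 and 0.461 over the alternatives run.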

How the results depend on the processing

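At day 7, DESeq2 called 4 genes higher and 2 lower in CR, limma-voom called 1 lower, and 0 to 1 higher and 0 to 1 lower were called when a tumor was left out (C030014I23Rik higher without PR tumor 5, Gm47204 lower without CR tumor 4). The revised quasi-likelihood method, robust dispersions, size factors, both other filters, the 6-group model and the covariates called 0 in each direction. For the difference from day -1, DESeq2 called 26 higher and 11 lower, an FDR of 0.05 gave 0 higher, and leaving out a tumor gave 0 to 61 higher and 0 to 33 lower. For the difference from day 3, DESeq2 called 11 higher and 3 lower, and leaving out a tumor gave 0 to 1 higher and 0 to 1 lower. Ereg missed an FDR of 0.05. The cause of these changes was not tested.

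Some list medians changed sign without 1 tumor: without CR tumor 4 the medians were 0.06 for T cells, 0.03 for NK and dendritic cells and -0.02 for mesothelium, without CR tumor 5 -0.12 for fat and -0.50 for skeletal muscle, and without CR tumor 2 -0.41 for skin. Single genes changed sign too. With limma-voom the log2 fold changes were 0.29 for Cd3e, 0.49 for Cd8a, 0.027 for Foxp3, -0.081 for Col1a1, -0.019 for Cdh5, -0.41 for Krt14, -0.39 for Acta1 and 0.037 for Mki67. With the covariates they were 0.066 for Cd3e, 0.18 for Cd8a, -1.08 for Krt14 and -0.12 for Acta1. With a tumor left out the lowest and highest values were -0.27 and 0.47 for Cd3e, -0.33 and 0.75 for Cd8a, -0.29 and 0.035 for Gzmb, -0.069 and 0.29 for Ifng, -0.12 and 0.14 for Foxp3, -0.19 and 0.032 for Ncr1, -0.10 and 0.27 for Cxcl9, -0.053 and 0.26 for Col1a1, -0.029 and 0.15 for Cdh5, -1.83 and 3.16 for Krt14, -0.70 and 0.21 for Acta1, -0.22 and 0.61 for Mybpc2, -0.037 and 0.37 for Msln, -0.18 and 0.061 for Mki67, -0.10 and 7e-04 for Cdkn1a and -0.14 and 0.050 for Adgre1.

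No paired analysis was possible because 1 tumor was resected per mouse, so CR and PR tumors came from different mice. The tumor numbers used here count within each group and match no CR tumor to a PR tumor. The 95% interval of a log2 fold change reached 0.19 to 0.56 to each side for the middle of the genes (quartiles), without adjustment for the number of genes.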

Other observations

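The values of other cell types and programs at day 7 are given here without a test. Dendritic cell genes had a median log2 fold change of -0.12 (2 of 15 above 0), and 0.03 without CR tumor 4. MHC class I genes had a median of -0.07 (2 of 11), helper T cell genes of type 1 -0.11 (2 of 9), regulatory T cell genes -0.03 (2 of 9), inhibitory checkpoints -0.07 (3 of 8) and B and plasma cell genes -0.09 (5 of 12). As mean log2 CPM, CR minus PR was -0.10 for MHC class I, -0.14 for helper T cells of type 1 and -0.08 for inhibitory checkpoints. Without CR tumor 4 these were 0.02, 0.03 and 0.05. Mast cell genes had -0.05 (2 of 8). The eosinophil genes had -0.18 (2 of 5), with a summed level of 92.5 to 512 CPM in CR tumors and 252 to 693 CPM in PR tumors. Targets of TNF and NF-kB had a median of 0.11 (15 of 23), and Ccl4, a chemokine of activated leukocytes, was the member with an unadjusted p under 0.05 (0.51, p 0.0446). Monocyte genes had a median of 0.04 (4 of 8).

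DNA replication genes had a median of -0.04 (6 of 24 above 0), genes of oxidative phosphorylation -0.01 (4 of 12), lipid handling and efferocytosis -0.04 (6 of 15), retinoid metabolism and targets -0.03 (8 of 17), endothelium -0.05 (6 of 15), pericytes and smooth muscle -0.03 (5 of 11) and genes of tissue handling stress -0.01 (6 of 13). Fat cell genes had 0.20 (6 of 8), and -0.12 without CR tumor 5. The 4 mesothelial genes tested of 12 had 0.13, and -0.02 without CR tumor 4. Skin genes had a median of 0.88, and -0.41 without CR tumor 2, and skeletal muscle genes had 0.04.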
